A study of Mus musculus with 8 samples.

Results

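Thy1, Ly6a, Ly6e, Ly6c1 and Ly6c2, 5 genes for glycosylphosphatidylinositol (GPI)-anchored surface proteins of lymphocytes, were examined in Th1-polarised CD4 T cells of Ikzf4 knockout and wild-type mice. They were picked by name from a table of 49040 genes after their knockout against wild-type values were known, so those values are given below as a description, without a test. All 5 were in the table, and all 5 were among the 14672 genes that passed a filter on low counts. RNA sequencing covered 4 knockout libraries (Ikzf4-/-, which lack Eos, an Ikaros-family transcription factor) and 4 wild-type libraries, each genotype numbered 1 to 4. In both groups the cells started as naive CD4+ T cells of the C57BL/6J strain and were grown for 72 h on plates coated with antibodies to CD3 and CD28, under Th1-polarising conditions. Ages, the cells in which the deletion acts and whether the mice were littermates are not stated in the labels, so a difference in genetic background and the loss of Eos cannot be told apart. It is likewise not stated whether the numbers mark separate animals or cultures; p-values then cover only the spread among these 8 libraries, part of which may be technical.

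A GPI anchor is a glycolipid added to the end of a finished protein in the endoplasmic reticulum, and it holds the protein on the outer face of the plasma membrane without a segment that crosses it. Thy1 (CD90) is a small immunoglobulin-superfamily protein that marks mouse T cells. The Ly6 proteins have the three-finger fold of the Ly6/uPAR family: Ly6a encodes Sca-1, which rises on T cells after activation and with interferon, Ly6e encodes an interferon-inducible antigen known from immature thymocytes, and Ly6c1 and Ly6c2 encode the near-identical forms of Ly6C, a marker of monocytes and of memory and effector T cells.

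Library totals ran from 25227017 to 53149322 counts in knockout libraries and from 25893792 to 43958781 in wild-type libraries. Ikzf4, the deleted gene, had 2.14, 2.58, 4.88 and 3.63 CPM (counts scaled by library size) in knockout libraries 1 to 4, against 41.1, 41.4, 48.1 and 54.9 CPM in wild-type libraries 1 to 4, and the groups did not overlap. The labels do not say which part of the gene was deleted. All 11 T cell markers listed (Cd3d, Cd3e, Cd4, Lck and others) passed the filter, with a summed level of 3971.8 to 5768.1 CPM in knockout libraries and 4006.3 to 5253.0 CPM in wild-type libraries. Deviations from the group means were shared within a number, so that differences within a same-numbered pair are given beside the group means.

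Thy1 lies on chromosome 9 from 44043384 to 44048579 (GRCm38, plus strand). The other genes sit in the Ly6 cluster on chromosome 15: Ly6e from 74955051 to 74959905 (plus strand), Ly6a from 74994877 to 74998031, Ly6c1 from 75044018 to 75048830 and Ly6c2 from 75108158 to 75111970 (each on the minus strand), within 156.9 kb. Ly6g, whose product carries the neutrophil epitope of the Gr-1 antibody and which is taken up below, follows Ly6c2 after a gap of 43.3 kb, from 75155240 to 75159126 on the plus strand. All are protein-coding, and the table gives 1 count per gene, so that coding and untranslated exons are not separated.

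Ly6c1, Ly6c2 and Ly6a are the members whose counts could mix. The coding sequences of Ly6c1 and Ly6c2 (GENCODE M21, GRCm38) have 396 bases each and differ at 9 bases. The first 90 bases, which hold 6 of the 9 differences, are shown, as the rest of the coding sequence gives a read little to tell these genes apart by. Capitals mark the bases that differ.
Ly6c1: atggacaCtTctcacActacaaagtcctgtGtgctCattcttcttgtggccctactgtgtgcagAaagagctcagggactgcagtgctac
Ly6c2: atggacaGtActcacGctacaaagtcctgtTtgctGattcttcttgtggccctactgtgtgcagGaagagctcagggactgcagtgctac
The identity of this pair was 97.7%, against 82.0% between Ly6a and Ly6c1, 53.8% between Ly6a and Ly6e, and 47.3% between Thy1 and Ly6a. Of all 50-base stretches in the annotated transcripts of Ly6c1, 32.8% also occurred in another gene (21.5% in Ly6c2 and 11.1% in Ly6a). The share was 19.0% for Ly6a, 14.5% for Ly6c2, 0.448% for Ly6g and 0 for Thy1 and Ly6e. At 100 bases the share fell to 10.1% for Ly6c1, 5.81% for Ly6c2 and 1.45% for Ly6a. How the authors counted reads with several matches is not stated in the labels or headers, so the values of Ly6c1, Ly6c2 and Ly6a are uncertain as single genes.

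All 5 genes were lower in knockout than in wild-type cells in each of the 4 same-numbered pairs. Thy1 and Ly6e were the members whose groups did not overlap, Ly6a was the most abundant, and the Ly6C genes were low and varied most between numbers. In RNA of whole cultures, fewer cells of a type and less RNA per cell cannot be told apart.

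Thy1 had 230, 186, 302 and 241 CPM in knockout libraries 1 to 4, against 441, 373, 680 and 623 CPM in wild-type libraries 1 to 4. The highest knockout library lay below the lowest wild-type library. The means were 239 ± 47.8 CPM in knockout and 529 ± 146 CPM in wild type (SD, n = 4 each), so that 45.2% of the wild-type level was left. The log2 fold change, knockout over wild type, was -1.14 ± 0.22 (SE) from the fit with genotype alone and -1.12 ± 0.08 with the replicate number as a block, which compares libraries within their number. Among the genes tested, ordered by mean CPM, Thy1 stood at place 789 in knockout and at place 264 in wild type.

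Ly6a had 525, 304, 673 and 539 CPM in knockout libraries 1 to 4, against 741, 613, 1118.8 and 995 CPM in wild-type libraries 1 to 4. The groups overlapped, because knockout library 3 lay above wild-type library 2. The means were 510 ± 153 CPM in knockout and 867 ± 231 CPM in wild type, 58.9% of the wild-type level, with a log2 fold change of -0.76 ± 0.26 (-0.78 ± 0.09 with the block).

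Ly6e had 131, 119, 178 and 134 CPM in knockout libraries 1 to 4, against 231, 199, 323 and 270 CPM in wild-type libraries 1 to 4, with no overlap. The means were 141 ± 25.9 CPM in knockout and 256 ± 53.7 CPM in wild type, and the log2 fold change was -0.86 ± 0.18 (-0.86 ± 0.07 with the block). Ly6e had the smallest spread of the members between the libraries of a genotype.

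Ly6c1 had 3.73, 0.576, 22.2 and 10.1 CPM in knockout libraries 1 to 4, against 11, 2.4, 60.0 and 56.1 CPM in wild-type libraries 1 to 4. Numbers 3 and 4 were high and number 2 low in both genotypes, and the groups overlapped widely. The means were 9.16 ± 9.56 CPM in knockout and 32.4 ± 29.9 CPM in wild type, with a log2 fold change of -1.83 ± 1.12, or -1.86 ± 0.18 with the block. Its standard error without the block was 6.2 times the one with it, the largest such ratio among the members.

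Ly6c2 had 4.19, 2.62, 7.57 and 2.68 CPM in knockout libraries 1 to 4, against 9.04, 5.58, 12 and 6.26 CPM in wild-type libraries 1 to 4. Here number 3 was again the highest in both genotypes, but number 4 lay close to number 2. The means were 4.27 ± 2.32 CPM in knockout and 8.22 ± 2.93 CPM in wild type, and the log2 fold change was -0.95 ± 0.39 (-1.01 ± 0.15 with the block). With the counts of Ly6c1 and Ly6c2 added together, so that a read given to the wrong one of these genes makes no difference, the log2 fold change was -1.60 ± 0.79 (-1.56 ± 0.17 with the block). With the 4 Ly6 members added together it was -0.81 ± 0.25 (-0.81 ± 0.08 with the block). The sum of Ly6c1 and Ly6c2 does not cover reads shared between Ly6a and Ly6c1, and Ly6a has the most counts in the sum of all 4. Ly6a had 16365 counts against 31 of Ly6c1 in knockout library 2, and 34193 against 1834 in wild-type library 3.

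**Figure D1:**
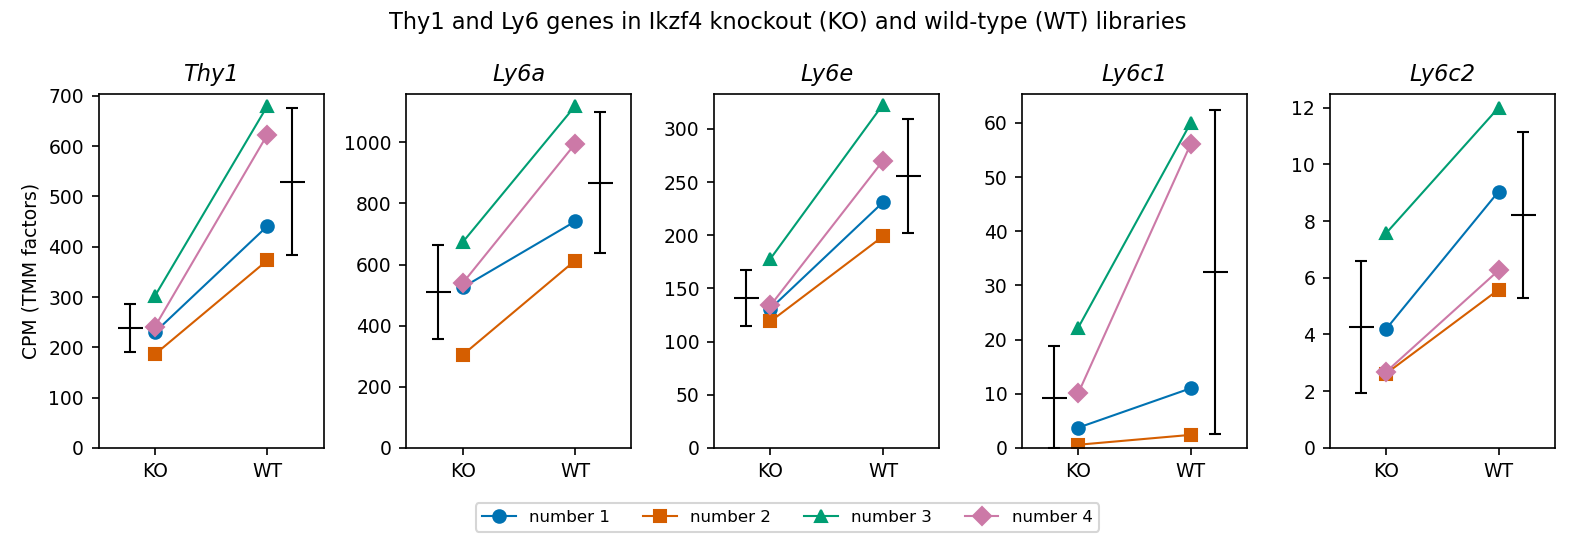
Level of each gene in CPM (linear axes that start at 0) in the 4 knockout (KO) and 4 wild-type (WT) libraries; lines join libraries of the same number, and black marks with bars give the mean and SD of each group, the lower bar of Ly6c1 in KO being ended at 0. All 20 lines go up to the WT side, and the KO and WT values of Thy1 and Ly6e do not overlap.

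Within pairs, the knockout library held 38.7% to 52.0% of the wild-type level of Thy1, 49.6% to 70.8% of that of Ly6a, 49.8% to 59.9% of that of Ly6e, 18% to 37.0% of that of Ly6c1 and 42.8% to 63.0% of that of Ly6c2. The ranges of Thy1, Ly6a, Ly6e and Ly6c2 share values, and that of Ly6c1 lies below all of them. In pair 4 the share was the lowest of the 4 pairs for 4 of the 5 genes, the exception being Ly6a, which was lowest in pair 2.

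**Figure D2:**
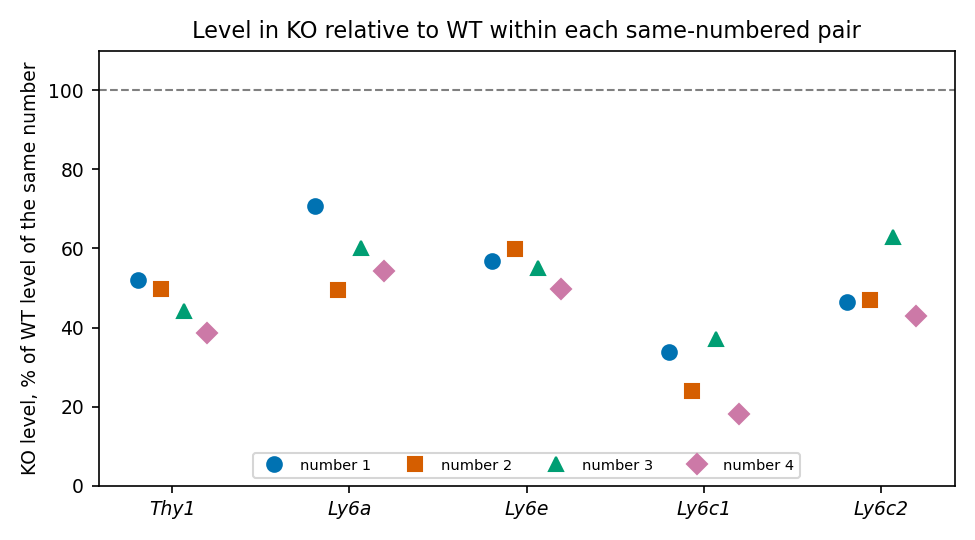
Level in each knockout (KO) library as a percent of the wild-type (WT) library of the same number, for the 5 genes and 4 numbers; the dashed line marks equal levels. All 20 points lie below the line, from 18% for Ly6c1 in pair 4 to 70.8% for Ly6a in pair 1.

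Set against all genes, edgeR with genotype alone and Benjamini-Hochberg adjustment called 0 of the 5 genes lower at an adjusted p threshold of 0.05, with 0.102% of all genes tested called lower and 0.0545% higher. With the replicate number as a block it called 5 of 5, where 4.01% of all genes were called lower and 2.69% higher, and DESeq2 without a block called 2 of 5, Thy1 and Ly6e, where 1.07% of all genes were. At an unadjusted p under 0.05 the first fit passed 4 of 5, against 8.1% of all genes in either direction. Of all genes tested, 14.8% were lower in knockout in all 4 pairs and 2.49% had every knockout library below every wild-type library. Since the genes were picked on this contrast, these counts describe them and test nothing. Their median log2 fold change was -0.95 (-1.01 with the block), and that of all genes tested was 0.0 with the block.

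Levels of different genes can be set side by side only per length. Per kb of one coding transcript, Ly6a had 623 ± 187 CPM per kb in knockout and 1058.6 ± 282 in wild type, Thy1 had 138 ± 27.6 in knockout and 305 ± 84.1 in wild type, and Ly6e had 61.6 ± 11.3 in knockout and 112 ± 23.6 in wild type. These 3 kept that order in every library. Ly6c1 had 10.9 ± 11.3 CPM per kb in knockout and 38.4 ± 35.4 in wild type, and Ly6c2 had 5.19 ± 2.82 in knockout and 10 ± 3.57 in wild type; the order of these neighbours changed with the number and lies within their spread.

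The members also varied with the replicate number. This contrast is not the one they were picked on, although the libraries were paired by number for that choice. In the blocked edgeR model the number term was called for 28.8% of all genes and for 5 of the 5 members. Every member was highest in number 3 and lowest in number 2 once averaged over the genotypes on the log2 scale. The fold between these numbers was 1.56 for Ly6e (adjusted p = 0.00782), 1.72 for Thy1 (adjusted p = 0.00632), 2.01 for Ly6a (adjusted p = 0.00332) and 2.47 for Ly6c2 (adjusted p = 0.00522). Without the libraries of number 3, Ly6e (adjusted p = 0.206) and Ly6c2 (adjusted p = 0.107) no longer passed.

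Ly6c1 had the largest such fold of the members, and the difference from the other members was not tested. Its fold between numbers 3 and 2 was 29.3 (edgeR, adjusted p = 0.000129), and of all genes tested 0.17% had a larger F value for the number term. The highest library held 38.5 times the lowest among knockout libraries and 25.0 times among wild-type libraries, against 1.63 and 1.82 times for Thy1. The ratio of Ly6c1 to Ly6c2 counts was 0.891, 0.22, 2.93 and 3.77 in knockout libraries 1 to 4, against 1.22, 0.429, 5.0 and 8.96 in wild-type libraries 1 to 4. Numbers 3 and 4 thus had more Ly6c1 than Ly6c2 counts in both genotypes, and number 2 had fewer. Ly6e to Ly6a ratios were steadier, 0.249 to 0.391 in knockout and 0.271 to 0.324 in wild type, as were Thy1 to Ly6a ratios, 0.438 to 0.61 in knockout and 0.595 to 0.627 in wild type.

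Among the other genes of the Ly6/uPAR family, Ly6g was, like Ly6c1, high in numbers 3 and 4 and lowest in number 2. Of 39 genes listed, 33 were in the table and 6 passed the filter: Ly6g, Ly6i, Ly6g5b, Lynx1, Lypd6b and Plaur. Ly6g had 0.884, 0.0557, 14.8 and 9.14 CPM in knockout libraries 1 to 4, against 2.9, 0.0846, 61.8 and 78.9 CPM in wild-type libraries 1 to 4. In libraries numbered 2 this came to 3 counts in knockout and 3 in wild type, and in number 3 to 379 counts in knockout and 1888 in wild type. The log2 fold change was -2.55 ± 1.65 (edgeR, adjusted p = 0.767) without the block and -2.38 ± 0.25 (adjusted p = 0.00118) with it, and the blocked call held when any 1 pair was left out (adjusted p = 0.00115 to 0.00722). Between numbers 3 and 2 Ly6g differed 238-fold (adjusted p = 8.36e-05), and of all genes tested 0.0682% had a larger F value.

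The other 5 family genes were low and none was called in either fit. Ly6i, a close copy of Ly6a, averaged 1.17 ± 0.304 CPM in knockout and 1.58 ± 0.361 CPM in wild type, and Plaur, the urokinase receptor, 1.23 ± 0.281 CPM in knockout and 2.07 ± 1.22 CPM in wild type. Lynx1, which encodes a modulator of nicotinic receptors, averaged 1.87 ± 1.02 CPM in knockout and 2.43 ± 0.746 CPM in wild type. Lypd6b averaged 2.34 ± 2.05 CPM in knockout and 1.59 ± 1.54 CPM in wild type, and Ly6g5b 0.756 ± 0.125 CPM in knockout and 0.801 ± 0.279 CPM in wild type. Ly6i lies inside the Ly6 cluster too, and the replicate number was not called for it (edgeR, adjusted p = 0.491). For the list, 0 genes were called without the block, by edgeR or DESeq2, and 0 passed an unadjusted p under 0.05; 0 were called higher and 1 lower with the block. The list's median log2 fold change was -0.42 with the block, where that of all genes tested was 0.0. Over all genes tested the blocked fit called 4.01% lower and 2.69% higher, shares to set beside the calls in this list and those below.

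Since Ly6g and Ly6C also mark neutrophils and monocytes, the markers of these cells were read in the same libraries. The summed level of 8 neutrophil markers, of which 1 passed the filter, was 0.0372 to 3.28 CPM in knockout libraries and 0.113 to 8.11 CPM in wild-type libraries. S100a8 and Retnlg, neutrophil-defining genes, had 0 counts in all 8 libraries, and S100a9 had 1 count in all libraries together. The sum was carried by Cxcr2, a chemokine receptor gene, with 14, 2, 80 and 27 counts in knockout libraries 1 to 4, against 47, 4, 235 and 164 counts in wild-type libraries 1 to 4, also high in numbers 3 and 4. Its log2 fold change with the block was -1.78 ± 0.29 (edgeR, adjusted p = 0.00992), and without the block it was not called (adjusted p = 0.804). The 10 monocyte and macrophage markers summed to 19.5 to 36.6 CPM in knockout libraries and 15.1 to 25.0 CPM in wild-type libraries, and Lyz2 had at most 6 counts in a library. Of the 5 that passed the filter, 1 was called lower and 1 higher with the block. Ccr2, a chemokine receptor of monocytes and of activated T cells, had 56, 22, 129 and 65 counts in knockout libraries 1 to 4, against 140, 44, 335 and 194 counts in wild-type libraries 1 to 4. Mpeg1, of the same list, went the other way in each pair. It had 848, 532, 229 and 272 counts in knockout libraries 1 to 4, against 437, 165, 140 and 109 counts in wild-type libraries 1 to 4.

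**Figure D3:**
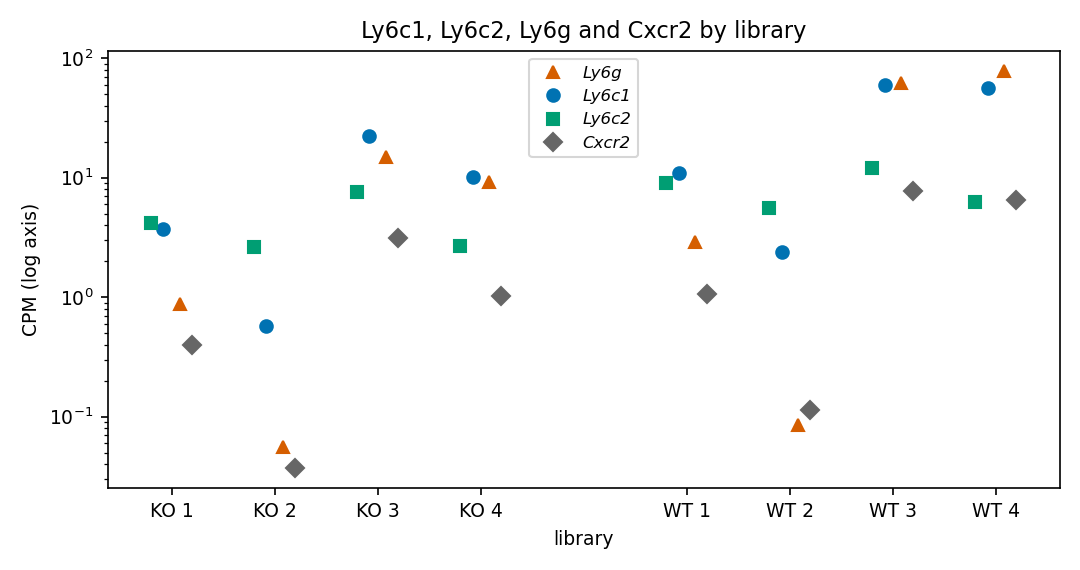
Level of Ly6g, Ly6c1, Ly6c2 and Cxcr2 in CPM (log axis) in each knockout (KO) and wild-type (WT) library; points of a library are set slightly apart. Ly6g, Ly6c1 and Cxcr2 are high in numbers 3 and 4 and lowest in number 2 in both genotypes, while Ly6c2 in number 4 lies near its level in number 2.

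Gamma-delta T cell and NK cell markers were in part lower in knockout with the block, and without it 0 of either list were called by edgeR. With the block 4.01% of all genes tested were called lower, and the markers were chosen with earlier results of these data known. The summed level of 5 gamma-delta T cell markers was 7.37 to 21.7 CPM in knockout libraries and 21.3 to 74.4 CPM in wild-type libraries, and 4 of the 5 were called lower with the block. The sum of 8 NK cell markers was 1.28 to 11.6 CPM in knockout libraries and 4.06 to 37.0 CPM in wild-type libraries. Of these markers 4 passed the filter and 3 were called lower with the block, and the defining gene Ncr1 had 0 counts in all libraries. Gzma, which activated T cells express as well, gave 29.0 of the 37.0 CPM in wild-type library 3. Cd8a and Cd8b1, which mark CD8 T cells, summed to 3.32 to 16.2 CPM in knockout libraries and 4.44 to 12.7 CPM in wild-type libraries, with overlap and 0 called. Mast cell and basophil markers, none of which passed the filter, summed to 0.0285, 0.111, 0.624 and 0.0 CPM in knockout libraries 1 to 4, against 13.6, 0.0282, 11.5 and 0.0396 CPM in wild-type libraries 1 to 4. Mcpt8, a basophil protease gene, had 262 counts in wild-type library 1 and 139 in wild-type library 3, against at most 6 in a knockout library. In pairs 1 to 4, Thy1 in knockout stood at 52.0%, 49.8%, 44.3% and 38.7% of wild type, and Ly6c1 at 33.9%, 24.0%, 37.0% and 18%. The members were picked on this contrast, and a link of these values with the basophil markers was not tested. Of the T cell markers, 0 of 11 were called in the blocked edgeR fit, and 0 without the block. The part of these cells in the levels of Thy1 and the Ly6 genes was not tested.

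Libraries 3 and 4 lay above libraries 1 and 2 in both genotypes for Ly6c1 and Ly6g, and also for Thy1, Ly6a, Ly6e, Cxcr2 and Spred3. The order was thus not particular to Ly6c1 and Ly6g. Among the members only Ly6c2, whose coding sequence is nearly that of Ly6c1, did not have it. The number term was called for 28.8% of all genes, and whether start regions have a part in these patterns was not tested. The start regions of the Ly6C genes and Ly6g are printed as a description. They hold the bases before every annotated start (RefSeq, GRCm38.p6), 5′ to 3′ on the gene's strand: chr15:75048921-75049087 (minus) for Ly6c1, chr15:75112067-75112221 (minus) for Ly6c2 and chr15:75155011-75155239 (plus) for Ly6g. Capitals mark runs of at least 15 bases that Ly6c1 shares exactly with Ly6g, that Ly6c2 shares with Ly6c1, and that Ly6g shares with Ly6c1.
Ly6c1: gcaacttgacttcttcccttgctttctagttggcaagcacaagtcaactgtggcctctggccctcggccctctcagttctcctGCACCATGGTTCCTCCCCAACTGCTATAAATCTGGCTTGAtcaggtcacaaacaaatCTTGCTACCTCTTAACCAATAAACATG
Ly6c2: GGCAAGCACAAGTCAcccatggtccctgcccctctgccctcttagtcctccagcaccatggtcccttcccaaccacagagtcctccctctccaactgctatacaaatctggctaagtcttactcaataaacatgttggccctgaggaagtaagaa
Ly6g: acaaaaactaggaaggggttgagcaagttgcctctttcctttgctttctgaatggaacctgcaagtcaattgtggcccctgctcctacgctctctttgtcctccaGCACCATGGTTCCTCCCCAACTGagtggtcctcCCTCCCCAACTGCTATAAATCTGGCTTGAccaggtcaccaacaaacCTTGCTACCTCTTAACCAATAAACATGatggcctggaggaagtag
Within the printed stretches the longest exact run was 29 bases between Ly6c1 and Ly6g, 18 bases between Ly6c2 and Ly6g and 15 bases between Ly6c1 and Ly6c2. Over their best local alignment the identity was 74.1% for Ly6c1 and Ly6g, 72.8% for Ly6c1 and Ly6c2 and 68.9% for Ly6c2 and Ly6g. The stretches have 167 bases for Ly6c1, 155 for Ly6c2 and 229 for Ly6g. The 15-base run begins at the first base printed for Ly6c2, so its length is a lower limit. These values therefore do not rank the pairs by likeness. Motifs were sought on both strands in the 250 bases before a RefSeq start of each gene, the one nearest its GENCODE start. Another annotated start lies further upstream in each gene. These windows therefore also hold bases that follow it and are not printed above. The Ikaros core TGGGAA occurred once in Ly6c2, 185 bases before the start used, and in neither Ly6c1 nor Ly6g. It occurred in 21.6% of all 32851 promoters. The STAT motif TTCNNNGAA (7.02% of all promoters) and the T-box motif AGGTGTGA (1.12%) occurred in none of these 3 windows. A match describes letters in this window and shows no binding.

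Genes of other GPI-anchored surface proteins gave 1 call in each direction. Of 37 genes listed, 23 passed the filter. Without the block edgeR called 0 and DESeq2 called 0, and 3 genes had an unadjusted p under 0.05. With the block 1 was called higher and 1 lower, and 21 were not called. Sema7a, a GPI-anchored semaphorin, was lower with the block, at 127 ± 54.4 CPM in knockout and 181 ± 73.3 CPM in wild type (edgeR, log2 fold change -0.50 ± 0.09, adjusted p = 0.0146). Ulbp1, which encodes an NKG2D ligand, was higher with the block, at 17.1 ± 8.55 CPM in knockout and 11.1 ± 5.71 CPM in wild type (0.64 ± 0.14, adjusted p = 0.0304). The call of Sema7a was lost without pair 1 or 4 (adjusted p up to 0.0638), and that of Ulbp1 without pair 2, 3 or 4 (up to 0.0965). The list's median log2 fold change was -0.06 with the block.

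Genes that build, attach and remodel the GPI anchor had a median log2 fold change of -0.01 with the block, over the 32 of 34 listed that passed the filter. Without the block edgeR and DESeq2 called 0, and 1 had an unadjusted p under 0.05. With the block 1 was lower: Pigz, which encodes a mannosyltransferase that adds a side mannose to the anchor, at 1.71 ± 1.05 CPM in knockout and 4.69 ± 3.55 CPM in wild type (log2 fold change -1.27 ± 0.26, edgeR, adjusted p = 0.0246). Its call was lost without pair 3 or pair 4 (adjusted p up to 0.129).

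Genes induced by interferon, as Ly6a, Ly6e and the Ly6C genes can be, gave calls in both directions, and the balance of these depended on pair 1. All 50 listed passed the filter, and the median log2 fold change was 0.17 with the block. Without the block edgeR called 0, with 3 at an unadjusted p below the threshold, and DESeq2 called 0 of the 39 to which it gave an adjusted p (11, Mx1, Mx2 and Oasl2 among them, had none). With the block 5 were higher, 1 lower and 44 not called, and without pair 1 the blocked fit called 1 higher and 2 lower. Ifih1, which encodes the RNA sensor MDA5, was higher at 136, 124, 47.8 and 71.3 CPM in knockout libraries 1 to 4, against 65.4, 56.7, 20.8 and 17.9 CPM in wild-type libraries 1 to 4 (log2 fold change with the block 1.33 ± 0.15, edgeR, adjusted p = 0.00146). The groups overlapped, while each knockout library lay above its pair. Mx1 (0.84 ± 0.15, adjusted p = 0.0129) and Oasl2 (1.06 ± 0.21, adjusted p = 0.0223), antiviral effectors, were called higher with the block but not without pair 1 (adjusted p up to 0.112 for Mx1 and 0.158 for Oasl2, which also lost its call without pair 3). Mx1 had 30.9, 3.77, 2.96 and 2.12 CPM in knockout libraries 1 to 4, against 15.2, 2.31, 2.03 and 0.991 CPM in wild-type libraries 1 to 4. Number 1 was thus high in both genotypes, and each knockout library lay above its pair. In the fit with genotype alone, the log2 fold change without knockout library 1 was -0.80 for Mx1 and -0.63 for Oasl2. Without wild-type library 1 it was 2.48 for Mx1 and 2.69 for Oasl2. With the block and any 1 pair left out it ran from 0.76 to 0.93 for Mx1 and from 0.84 to 1.16 for Oasl2. Ifi204, of the interferon-induced p200 family, was lower at 1.67 ± 1.35 CPM in knockout and 3.35 ± 2.04 CPM in wild type (-1.16 ± 0.23 with the block, adjusted p = 0.0214), a call lost without pair 3 or 4 (up to 0.0662).

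Chromosomal neighbours of the members were mostly lowly expressed. Of 47 genes listed (the 10 nearest on each side of Thy1 and of the Ly6 block, and those inside it), 13 passed the filter, with a median log2 fold change of -0.41 with the block. Without the block 0 were called by edgeR or DESeq2, and 0 passed an unadjusted p under 0.05. With it, Ly6g (above) and the long noncoding gene model next to Thy1, Gm39323, were lower, and Nectin1, an adhesion receptor gene on the Thy1 side, was higher at 8.11 ± 5.56 CPM in knockout and 4.58 ± 3.17 CPM in wild type (0.86 ± 0.15, edgeR, adjusted p = 0.0148, and 0.101 without pair 3). Gm39323 averaged 15.8 ± 6.63 CPM in knockout and 26.9 ± 15.3 CPM in wild type (-0.65 ± 0.13 with the block, edgeR, adjusted p = 0.0247), and its call was lost without pair 1, 3 or 4 (adjusted p up to 0.14).

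Genes of T helper differentiation that are read together with Ly6C and Sca-1 in memory and effector cells gave calls mostly toward lower levels in knockout. Of 32 listed, 29 passed the filter, and the list's median log2 fold change was -0.38 with the block. Without the block edgeR called 0 (11 had an unadjusted p under 0.05) and DESeq2 called 5 lower. With the block 11 were lower, 2 higher and 16 not called, where 4.01% of all genes tested were called lower and 2.69% higher. The list was drawn up with earlier results of these data known, so these counts describe it and test nothing. Ifng, the Th1 cytokine, averaged 600 ± 211 CPM in knockout and 1332.3 ± 375 CPM in wild type (-1.17 ± 0.08 with the block, edgeR, adjusted p = 0.000232). Gzmb and Prf1, for the cytotoxic proteins granzyme B and perforin, were lower too (-2.25 ± 0.15, adjusted p = 0.000201, and -2.22 ± 0.16, adjusted p = 0.000232). Tcf7, for the factor TCF-1 of naive and memory cells, was higher at 149 ± 41.7 CPM in knockout and 105 ± 34.4 CPM in wild type (0.52 ± 0.08, adjusted p = 0.00836, and 0.0504 without pair 3). Cd44, whose product is an antigen of activated and memory T cells, was higher at 152 ± 52.1 CPM in knockout and 119 ± 34.7 CPM in wild type (0.34 ± 0.08, adjusted p = 0.0393), with the call lost without pair 1, 3 or 4 (up to 0.238).

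**Figure D4:**
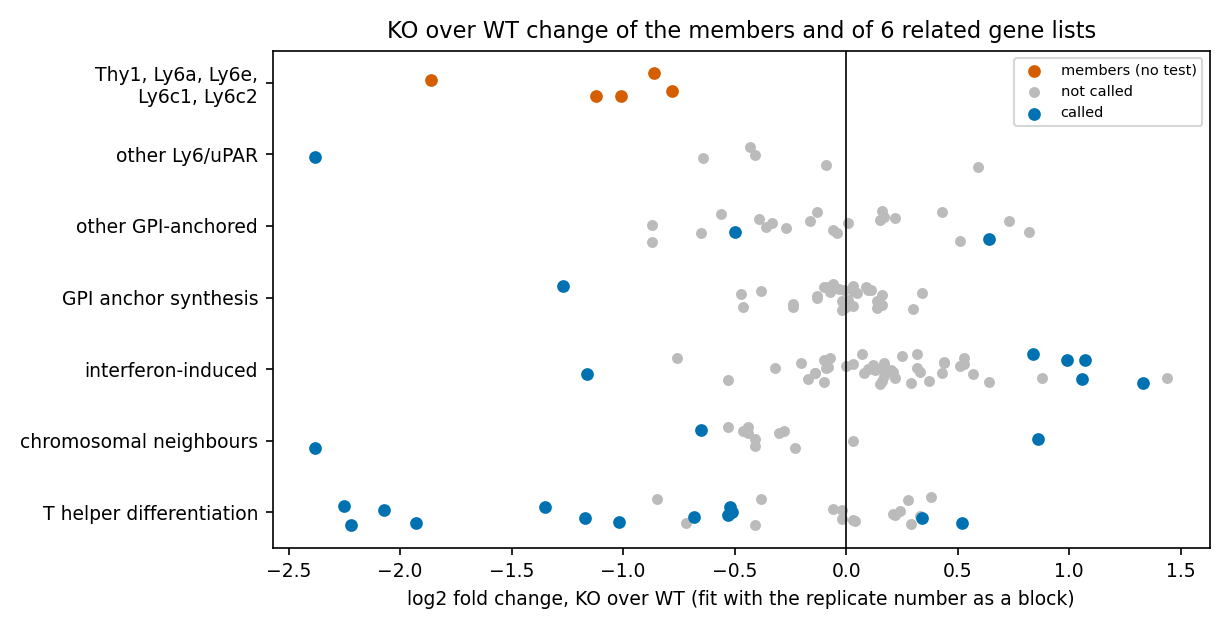
Log2 fold change, knockout (KO) over wild type (WT), with the replicate number as a block, for the 5 members (orange, no test) and for the tested genes of 6 related lists; blue points were called at an adjusted p under 0.05, grey points were not, and the vertical spread within a row carries no value. The members lie between -1.86 and -0.78, and Ly6g, at -2.38, appears in 2 lists.

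The genes most like each member over the 8 libraries were found by the root mean square difference of log2 CPM, each gene centred on its own mean, among 8509 genes with a mean of at least 10 CPM. Thy1 was nearest to Cndp2, a cytosolic dipeptidase gene (0.14), to the mitochondrial gene Chchd10 (0.158) and to Il7r, for the IL-7 receptor alpha chain (0.17). Ly6e was nearest to Cndp2 as well (0.079), then to the acyltransferase gene Agpat4 (0.113) and the calpain gene Capn2 (0.122). Ly6a was nearest to Nabp1, a single-strand DNA-binding protein gene (0.062), Agpat4 (0.125) and the mitochondrial carrier gene Slc25a24 (0.15). Cndp2 averaged 193 ± 35.8 CPM in knockout and 366 ± 89.2 CPM in wild type, and Nabp1 222 ± 67.1 CPM in knockout and 408 ± 107 CPM in wild type. Since libraries of both genotypes entered the search, the difference of these genes between genotypes follows from how they were found.

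The Ly6C genes had looser matches. Ly6c2 was nearest to Trp53i11 (0.23), Ifng (0.249) and the homeodomain-only gene Hopx (0.285). Ly6c1 was nearest to Spred3, of an ERK pathway inhibitor family (0.628). Next came the leukotriene receptor gene Cysltr1 (0.685) and the metalloprotease gene Adamts14 (0.686), all distant. Between members the difference was taken with each gene centred on its mean within each genotype. That leaves out the genotype difference, so these values cannot be set beside those above. They were 1.64 between Ly6c1 and Ly6c2, 0.1 between Thy1 and Ly6e and 0.14 between Thy1 and Ly6a. Spred3 had 3.85, 1.41, 14.6 and 8.84 CPM in knockout libraries 1 to 4, against 6.89, 1.55, 35.0 and 34.0 CPM in wild-type libraries 1 to 4, the order by number of Ly6c1.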

How the data were processed

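The authors deposited whole-number read counts per gene for 8 libraries. The submitters' processing notes name STAR 2.5.2, Subread 1.5.2 with featureCounts, and DESeq2, on GRCm38. Annotation, strand setting and handling of multiply matching reads were not stated there. Per the file headers, the deposited table also holds the authors' own comparison: a mean normalized signal, log2 fold changes with their errors (wild type over knockout), a test statistic (a score) and p-values. It was used only as a check: running DESeq2 1.42.0 on the same counts returned log2 fold changes within 0.000186 of the authors' after the sign was turned.

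Counts were tested with edgeR 4.0.16 (R 4.3.3; quasi-likelihood, TMM factors, filter on low counts, no term but genotype) over all 14672 genes that passed, p-values adjusted by Benjamini and Hochberg, threshold 0.05; these genes held 99.9% of counts. CPM used the TMM factors. A prior count of 2 entered log2 CPM, and means carry SDs. The replicate number as a block was an alternative. The numbers pair the libraries: deviations from the group means correlated across genes within each number (r = 0.62, 0.726, 0.732 and 0.612 for numbers 1 to 4), and for each library most strongly with its own number. This pairing rests on the values, as the labels name no shared litter or day. No pair of libraries of a group agreed within sampling noise. Other alternatives were DESeq2, median-of-ratios factors, no filter, raw totals, summed close copies and leaving out each library or pair. The fits were tested on simulated counts with known changes.

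The members, gene lists and markers were chosen with earlier results of these data known. Named genes are the members, Ikzf4, up to 3 called genes per list and direction by smallest p (unnamed gene models left out), the other Ly6/uPAR genes tested and the 3 genes most like each member. Gm39323, Mx2, Gzma, Cxcr2, Ccr2, Mpeg1 and Mcpt8 were named after their values were seen. Of 11 marker lists, those of B cells, plasmacytoid dendritic cells, endothelial cells and fibroblasts had 0 genes called with the block, and no mast cell or basophil marker passed the filter. Gene positions and coding sequences come from GENCODE M21, and start regions from RefSeq. Proteins and the promoters of Thy1, Ly6a and Ly6e were not analysed here.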

Additional observations from a re-analysis of the deposited data

How the results depend on the processing

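The log2 fold changes of Thy1, Ly6a, Ly6e, Ly6c1 and Ly6c2 kept their direction under every alternative run, with ranges over single left-out libraries of -1.28 to -1.01 for Thy1, -0.93 to -0.58 for Ly6a, -1.0 to -0.74 for Ly6e, -2.77 to -1.35 for Ly6c1 and -1.38 to -0.72 for Ly6c2. With Ly6c1, Ly6c2 and Ly6g summed, a choice made after the data were seen, the change was -1.97 ± 0.99 (-1.77 ± 0.21 with the block).

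Which genes pass depends on the replicate block. Without it edgeR called 8 genes higher and 15 lower in knockout, with 7 to 9 higher and 7 to 15 lower when single libraries were left out. With the block it called 395 higher and 589 lower, and without pairs 1, 2, 3 and 4 it called 250, 529, 144 and 199 higher and 372, 908, 254 and 330 lower; DESeq2 called 61 higher and 164 lower. Of the members, 0 were called without the block, also when single libraries were left out, 5 with the block, whichever pair was left out, and 2 by DESeq2. With the block the calls per list were 1 lower in the other Ly6/uPAR list, 1 higher and 1 lower in the other GPI-anchored list, 1 lower in GPI anchor synthesis, 5 higher and 1 lower in the interferon list, 1 higher and 2 lower among neighbours, and 2 higher and 11 lower in the T helper list. With pairs left out they ran from 1 to 1, 0 to 1 higher and 0 to 1 lower, 0 to 2, 1 to 9 higher (6 without pair 4) and 0 to 2 lower (1 higher against 2 lower without pair 1), 0 to 1 higher and 1 to 2 lower, and 0 to 2 higher and 8 to 13 lower (12 without pair 1, 10 without pair 4). In the T helper list DESeq2 called 5 lower and edgeR without the filter 1. The replicate number was called for 4219 genes, for 2633 to 4347 with 1 number left out, and for 6384 without the filter.

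Directions turned for Ly6g5b (0.0 without knockout library 3, 0.11 without wild-type library 1, and with the block 0.04 without pair 1 and 0.02 without pair 2), Lypd6b (-0.18 without knockout library 2), Mx1 (-0.80) and Oasl2 (-0.63), both without knockout library 1. Over single left-out libraries the values ran from -0.25 to 0.11 for Ly6g5b, -0.18 to 1.48 for Lypd6b, -0.80 to 2.48 for Mx1 and -0.63 to 2.69 for Oasl2; the cause was not tested. Depth limits Ly6g in number 2, with 3 counts in knockout and 3 in wild type, and Ly6c1 there, with 31 counts in knockout and 85 in wild type.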
